A study of Mus musculus with 5 samples.

Results

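A set of 211 genes was high in replicate 1 of 3 RNA-seq libraries of primary adipocytes and low in the other 2, and many of them are genes of haploid male germ cells. The members were chosen by a rule on these same values. Of 19924 genes left after removing symbols that start with Mir, Sno or Gm or end in Rik, 11436 had a mean FPKM of at least 1 (a transcript's sequenced fragments, divided by its length and by the size of the library). Members are the genes among these whose FPKM plus 0.1 in replicate 1 was more than 8 times that in both other libraries, which is 1.85% of the genes so filtered. The difference between libraries is therefore how the genes were picked, and it is described here with no test. All 3 RNA libraries came from adipocytes of the epididymal fat of wild-type C57BL/6 mice aged 17 weeks, with no treatment in the labels. The series also lists bisulfite libraries of adipocytes, 1 with Dnmt1 deleted in adipocytes (Dnmt1 AKO) and 1 wild type, which were not analysed here. Nothing in the labels says that the RNA libraries came from separate animals, and no read counts were given, so the depth behind each value is unknown.

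Sperm form in the seminiferous tubules of the testis. Spermatogonia divide by mitosis, spermatocytes pass through meiosis, round spermatids build the acrosome, and elongating spermatids pack their DNA with protamines and grow a flagellum. Sertoli cells support the germ cells inside the tubule and Leydig cells make androgen between the tubules. Many genes of late germ cells are copies of genes used in all tissues, and DNA methylation keeps some germ cell genes silent in other tissues.

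The members were low in replicates 2 and 3 but not uniformly absent there. All 211 reached FPKM 1 in replicate 1, where the lowest stood at 2.94 and the median at 6.19, against medians of 0.0671 and 0.0482 FPKM in replicates 2 and 3. Among all 19924 genes, 59.4% reached FPKM 1 in replicate 1, 54.4% in replicate 2 and 56.4% in replicate 3. Of the members, 13 still reached FPKM 1 in replicate 2 and 8 in replicate 3, while 67 and 77 were listed at 0 in those libraries and 38 in both. A listed 0 can be a failed estimate in this kind of table. Summed over the members, the FPKM came to 3140 in replicate 1, or 0.623% of the library's total, against 61.6 (0.0126%) in replicate 2 and 40.4 (0.00771%) in replicate 3. The same 8-fold rule turned to the other libraries found 1 gene high in replicate 2 alone, the xenobiotic-metabolising enzyme Cyp1a1, which is 0.00874% of those tested, and 0 in replicate 3.

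**Figure D1:**
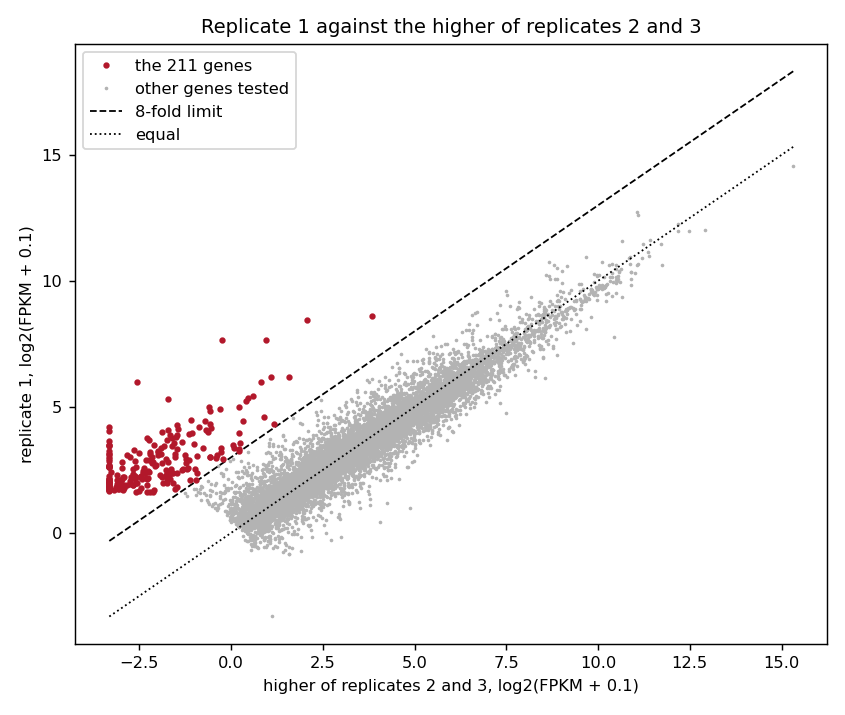
Each point is 1 of the 11436 genes tested, with its level in replicate 1 on the vertical axis and the higher of its levels in replicates 2 and 3 on the horizontal axis, both as log2(FPKM + 0.1). The 211 members (red) lie above the dashed 8-fold line by construction, and the rightmost of them is Prm2, at 14.2 FPKM in replicate 2.

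Members near the limits show how sharp the choice was. Just inside the 8-fold limit were Spink2, a protease inhibitor of the acrosome, at a ratio of 8.17, Ubxn11 at 8.35 and the water channel Aqp11 at 8.67. Just outside were BC100451 at 7.98, Fam229b at 7.41 and Ggnbp1 at 7.40. At the lower limit on the mean, Actl11, Odf4 and Tbata entered at mean FPKM of 1.01, 1.02 and 1.02, and Rnf32 and Txndc8 stayed out at 0.959 and 0.950. Most members were far from the fold limit. The ratio of replicate 1 to the higher of the others, with 0.1 FPKM added to each, exceeded 16 for 171 members and 32 for 98, and its highest value was 377.

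The highest members were the genes that pack sperm DNA. Prm2, which encodes a protamine, stood at 387 FPKM in replicate 1, against 14.2 and 2.92 in replicates 2 and 3. Prm1, the other protamine, stood at 348 FPKM in replicate 1, against 4.07 and 3.90. The transition proteins, which hold the DNA between histone removal and protamine loading, followed closely. Tnp2 had 201 FPKM in replicate 1, against 0.744 and 0.539, and Tnp1 had 200 FPKM in replicate 1, against 0.687 and 1.84. These 4 genes held 36.2% of the members' summed FPKM in replicate 1. The 4 highest members of each other library held 37.6% in replicate 2 and 26.8% in replicate 3. Prm1, Prm2, Prm3 and Tnp2 lie together on chromosome 16 between 10787935 and 10796823 (coordinates of the table, counted from 1), and Tnp1 lies on chromosome 1 between 73015075 and 73015899. Prm3 was lower than its neighbours, at 11.2 FPKM in replicate 1, and was listed at 0 in replicates 2 and 3. The spermatid linker histones Hils1 and H1fnt stood at 15.7 and 12.8 FPKM in replicate 1, against 0.373 and 0.199 in replicate 2 and 0.237 and 0 in replicate 3. The row named H2afb1 lies where RefSeq places H2al2a, a histone H2A variant of spermatids, and stood at 12.5 FPKM in replicate 1 and at 0 in the others. Hmgb4, a high mobility group protein of the testis, stood at 18.1 FPKM in replicate 1 and at 0 in the others. On a fixed list of 12 chromatin packaging genes 7 were members, against 1.85% of all genes tested. On that list Hist1h1t and Hist1h2aa, both testis histones, stood at 0.0524 and 0 FPKM in replicate 1. The testis H2B gene Hist1h2ba stood at 1.42 FPKM in replicate 1, against 0 and 0.908.

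**Figure D2:**
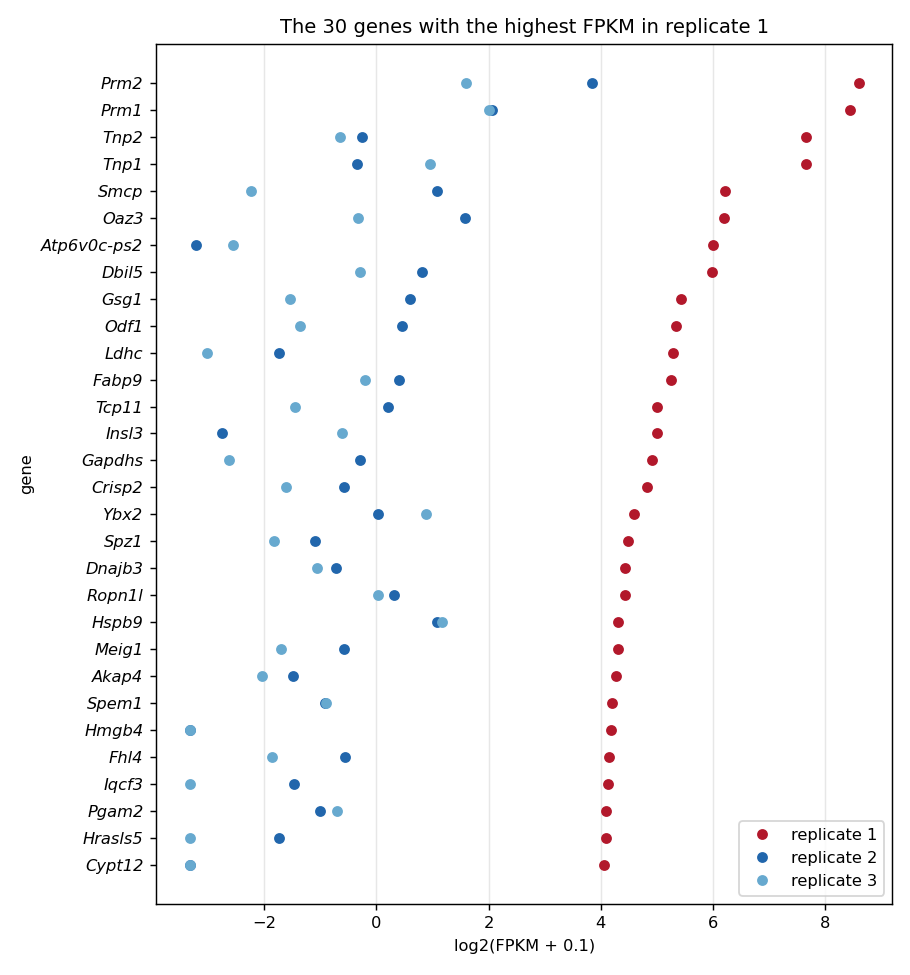
The 30 members with the highest FPKM in replicate 1, from the top down, with log2(FPKM + 0.1) on the horizontal axis and 1 point per library. In every row the replicate 1 point lies far to the right, and Prm2 in replicate 2, at 14.2 FPKM, is the highest point outside replicate 1.

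Promoters of the members were poor in CpG, a property the rule did not use. RefSeq promoter sequences of GRCm38.p6, 300 bases long with 250 before and 50 after the gene's start, were at hand for 171 members and for 8859 of the genes tested, counting those within 500 bases of the table's own start. The members had a median of 5 CpG per promoter, against 21 over all genes tested. The ratio of observed to expected CpG had a median of 0.244 in the members, against 0.775 over all genes tested and 0.635 over 15164 measured genes of any level. A ratio of at least 0.6, a usual mark of a CpG-rich promoter, was reached by 39 of 171 members (22.8%, Wilson 95% interval 17.2 to 29.7), against 73.6% of genes tested and 53% of genes measured. This is a description, and members that lie side by side or share a family are not independent. Prm1 and Ybx2, an mRNA-binding protein of germ cells, are shown as a CpG-poor and a CpG-rich example and were chosen after their CpG values were seen. The 250 bases before their starts are printed 5′ to 3′ on the gene's strand with each CpG in capitals, and the Prm1 stretch (chr16:10796824-10797073, minus strand, GRCm38.p6) holds none. The Ybx2 stretch (chr11:69935649-69935898, plus strand) holds 35.
Prm1: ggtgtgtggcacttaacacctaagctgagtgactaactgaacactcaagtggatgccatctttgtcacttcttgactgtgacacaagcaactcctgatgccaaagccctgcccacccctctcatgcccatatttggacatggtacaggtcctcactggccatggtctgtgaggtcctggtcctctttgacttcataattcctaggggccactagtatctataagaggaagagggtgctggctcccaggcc
Ybx2: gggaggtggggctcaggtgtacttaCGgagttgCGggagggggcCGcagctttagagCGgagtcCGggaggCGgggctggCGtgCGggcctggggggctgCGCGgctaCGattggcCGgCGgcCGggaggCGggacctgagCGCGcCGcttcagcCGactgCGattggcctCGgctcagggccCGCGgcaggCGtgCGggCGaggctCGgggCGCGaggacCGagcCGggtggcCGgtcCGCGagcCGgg

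**Figure D3:**
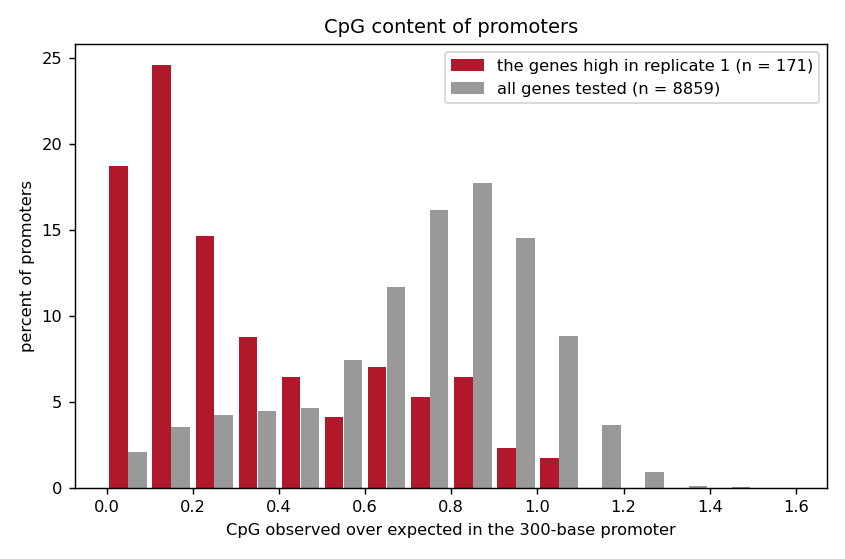
Bars give the percent of promoters in each bin of observed over expected CpG, for the 171 members with a promoter sequence (red) and the 8859 genes tested (grey). The members crowd at low values, around their median of 0.244, and the genes tested around 0.775.

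Short motifs known from germ cell promoters were then counted on both strands of the same promoters. GTTGCC, a core of the sites that RFX factors bind, was found in 40 of 171 members (23.4%, Wilson 95% interval 17.7 to 30.3), against 12.6% of genes tested. TATAAA was found in 24 members (14.0%, interval 9.62 to 20), against 7.20%, and CAACNG, which holds the core of MYB sites, in 65 (38.0%, interval 31.1 to 45.5), against 32.3%. Among the 30 members on stage lists with a promoter, 6 held CAACNG (20%), 5 held GTTGCC (16.7%) and 3 held TATAAA (10%). TGACGTCA, the palindrome bound by CREM and its relatives, was found in 5 members (2.92%), against 3.27% of genes tested, and TGACGTAA in 0 members, against 0.880%. A GTTGCC match can share its first 4 bases with a CAACNG match on the opposite strand. For each motif that was found, the member with the highest FPKM in replicate 1 and a match before its start is shown over 250 bases, 5′ to 3′ on the gene's strand in GRCm38.p6, with the match in capitals. Prm2 (chr16:10792106-10792355, minus strand) holds TATAAA on the opposite strand, 31 to 26 bases before the start. Dbil5 (chr11:76217363-76217612, plus strand) holds GTTGCC 69 to 64 bases before it. Ldhc (chr7:46861013-46861262, plus strand) holds CAACNG at 25 to 20 bases on the opposite strand and at 8 to 3 bases on the same strand. Iqcf3 (chr9:106561626-106561875, minus strand) holds TGACGTCA at 52 to 45 bases.
Prm2: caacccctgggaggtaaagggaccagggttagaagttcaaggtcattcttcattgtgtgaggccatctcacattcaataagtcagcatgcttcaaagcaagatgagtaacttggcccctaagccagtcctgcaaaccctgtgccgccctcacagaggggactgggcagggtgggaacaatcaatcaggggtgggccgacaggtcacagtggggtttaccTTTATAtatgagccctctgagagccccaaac
Dbil5: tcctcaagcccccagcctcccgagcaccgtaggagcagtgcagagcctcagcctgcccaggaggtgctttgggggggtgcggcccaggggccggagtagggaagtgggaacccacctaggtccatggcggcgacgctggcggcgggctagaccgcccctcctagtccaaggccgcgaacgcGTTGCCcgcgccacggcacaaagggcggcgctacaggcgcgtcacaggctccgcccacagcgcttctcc
Ldhc: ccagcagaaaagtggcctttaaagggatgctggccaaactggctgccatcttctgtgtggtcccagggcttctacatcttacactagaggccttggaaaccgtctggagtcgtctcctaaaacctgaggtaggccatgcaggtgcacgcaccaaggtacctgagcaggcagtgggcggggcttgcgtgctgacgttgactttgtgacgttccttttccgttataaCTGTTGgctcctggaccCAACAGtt
Iqcf3: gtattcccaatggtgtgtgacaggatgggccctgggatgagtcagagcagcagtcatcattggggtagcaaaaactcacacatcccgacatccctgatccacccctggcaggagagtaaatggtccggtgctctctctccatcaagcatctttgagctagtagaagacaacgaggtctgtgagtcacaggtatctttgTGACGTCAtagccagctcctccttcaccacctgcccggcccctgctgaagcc

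Of the members that stood on lists of stage markers, most were on the elongating spermatid list. The lists were written with earlier results of these data known, so their counts are not independent evidence. The stage at which each RNA was made was not tested. Of 33 elongating spermatid genes measured, 29 were members, against 3 of 27 round spermatid and acrosome genes, 4 of 17 genes of pachytene and later spermatocytes, 1 of 28 meiotic prophase genes and 0 of 16 spermatogonium genes. In all, 37 of the 211 members stood on a stage list, so the lists do not place the rest. The limit of a mean FPKM of 1 shaped this order, since a gene confined to replicate 1 had to approach FPKM 3 there. With the 8-fold limit alone, the counts were 33 of 33 for elongating spermatids, 17 of 27 for round spermatids, 8 of 17 for late spermatocytes, 3 of 28 for meiotic prophase and 0 of 16 for spermatogonia, where the background over all genes above 0 was 2.79%. Genes that were simply highest in replicate 1 numbered 33, 26, 17, 25 and 9 on these lists, against a background of 51.5% of all genes above 0.

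List medians in replicate 1 were in the order of the counts at the 8-fold limit alone, while by share of members late spermatocytes (23.5%) stood above round spermatids (11.1%). On the log2(FPKM + 0.1) scale the median was -1.98 for spermatogonia, -1.03 for meiotic prophase, 0.35 for late spermatocytes, 1.14 for round spermatids and 3.48 for elongating spermatids in replicate 1, against 3.35 over all genes tested. In replicates 2 and 3 the medians were -3.32 and -2.68 for spermatogonia, -3.28 and -3.23 for meiotic prophase, -2.68 and -3.02 for late spermatocytes, -3.32 and -3.03 for round spermatids and -1.74 and -2.23 for elongating spermatids. The lowest value this scale can take is -3.32, which stands for a listed 0. The 4 elongating spermatid genes that were not members, Odf3, Ccin, Cylc2 and Cylc1, had 2.72, 1.85, 1.48 and 0.835 FPKM in replicate 1 and at most 0.0844 in the others, and each missed the mean of 1.

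**Figure D4:**
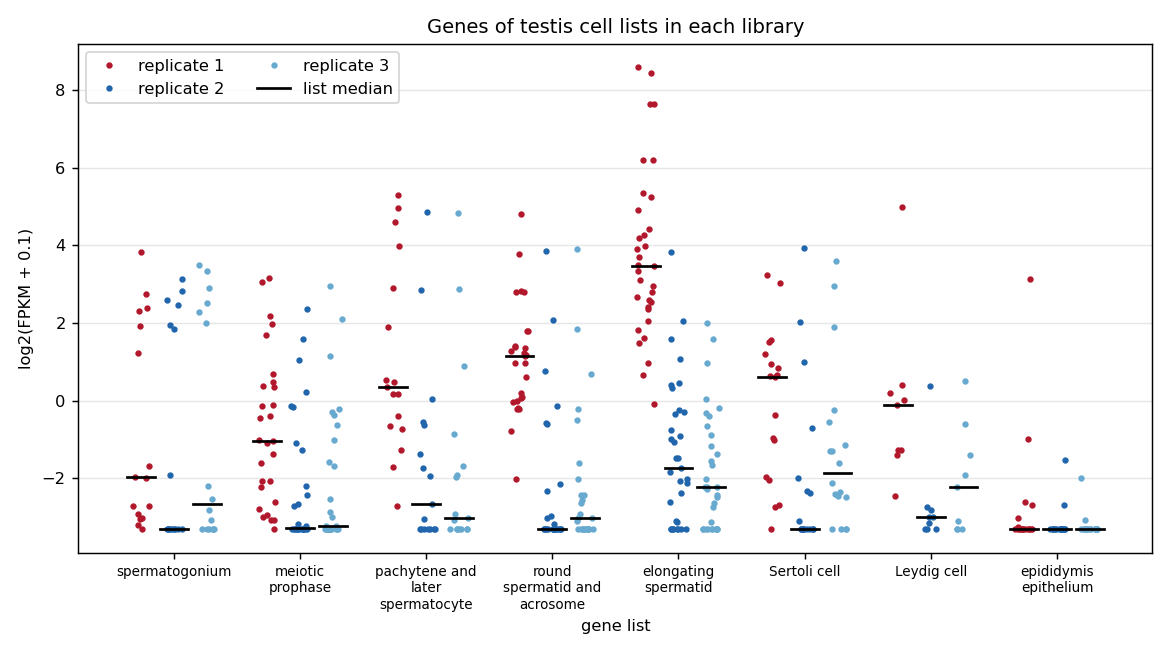
Each point is a gene of a fixed list, with log2(FPKM + 0.1) on the vertical axis, 1 colour per library and a bar at the list median. In replicate 1 the medians rise along the germ cell stages to 3.48 for elongating spermatids, and in the epididymis list all 3 medians lie at -3.32.

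Most meiotic prophase and spermatogonium genes were below FPKM 1 in replicate 1. The only meiotic prophase member was Syce1, a central element protein of the synaptonemal complex, at 3.80 FPKM in replicate 1 and 0 in the others. Its partner Syce3 and the cohesin Stag3 showed the same contrast below the limit on the mean. They had 1.5 and 1.18 FPKM in replicate 1, against 0 and 0.00629 in replicate 2 and 0 and 0.00636 in replicate 3. Only these 3 of the 28 prophase genes passed the 8-fold limit. The highest on the list, Mnd1 and Syce2, did not, at 8.89 and 8.15 FPKM in replicate 1. They had 5.01 and 2.90 in replicate 2 and 7.59 and 4.20 in replicate 3. Sycp3 stood at 4.46, against 1.06 and 0.395. Sycp1, Spo11 and Dmc1 had 0.226, 0.138 and 0.0441 FPKM in replicate 1 and 0 in the others. The spermatogonium genes that reached FPKM 1, such as Zbtb16 at 14.1, Kit at 4.88 and Ret at 2.23 in replicate 1, did so in the other libraries too, with 5.90, 6.94 and 5.44 in replicate 2 and 7.44, 4.73 and 11.1 in replicate 3. These genes are also used outside the germ line. The spermatogonial regulators Nanos2, Dmrt1, Stra8 and Sohlh1 stayed at or below 0.155 FPKM in every library.

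Genes of the sperm tail were the largest group by number among the members given a role. A role from textbook knowledge was assigned to 136 members once their names were known, and 27 of these belong to the flagellum, axoneme or neck. Smcp, a protein of the sperm mitochondrial sheath, led them at 73.6 FPKM in replicate 1, against 2.01 and 0.114 in replicates 2 and 3. Odf1, an outer dense fibre protein, stood at 40.4 FPKM in replicate 1, against 1.27 and 0.288. The fibrous sheath anchors Akap4 and Akap3 stood at 19.2 and 6.88 FPKM in replicate 1, against 0.257 and 0.130 in replicate 2 and 0.145 and 0.0782 in replicate 3. Their binding partners Ropn1l and Ropn1 stood at 21.4 and 7.61 FPKM in replicate 1. Meig1, which is needed to build the mouse sperm tail, stood at 19.7 FPKM there, against 0.574 in replicate 2 and 0.209 in replicate 3. Of 39 measured genes of the fixed flagellum and axoneme list 15 were members, 27 passed the 8-fold limit alone, and 39 were highest in replicate 1. Over all genes, 1.85% of those tested were members. Of all genes above 0, 2.79% passed the 8-fold limit and 51.5% were highest in replicate 1. Axoneme genes that motile cilia share were lower, with the dynein heavy chains Dnah8, Dnah17 and Dnah1 at 0.577, 0.424 and 0.194 FPKM in replicate 1.

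Energy metabolism was represented by the sperm forms of glycolytic and mitochondrial enzymes. Ldhc, the lactate dehydrogenase of germ cells, stood at 39.1 FPKM in replicate 1, against 0.202 and 0.0234 in replicates 2 and 3. Gapdhs, the sperm glyceraldehyde-3-phosphate dehydrogenase, stood at 30 FPKM, against 0.716 and 0.0617, and Pgk2, the germ cell phosphoglycerate kinase, at 15.8, against 0.545 and 0.0186. The cytochrome oxidase subunit genes Cox8c and Cox7b2 stood at 10.8 and 3.60 FPKM in replicate 1 and were listed at 0 in the others. Dbil5, a relative of the acyl-CoA-binding protein, reached 63.2 FPKM in replicate 1, against 1.66 and 0.716. On the fixed list 10 of 19 genes were members and 14 passed the 8-fold limit alone. Over all genes the shares were 1.85% of those tested and 2.79% of those above 0.

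The counterparts in somatic cells that were named for members mostly varied little across libraries. For 19 members a relative used in other tissues was named once the members were known. In 18 of these pairs the relative's highest and lowest library were within 2-fold of each other. The share of all genes tested that stayed within 2-fold was not counted, so this count may be near the background. Ldha stood at 354 FPKM in replicate 1, against 245 and 275 in replicates 2 and 3, and Pgk1 at 74.0, against 63.3 and 74.7. Gapdh stood at 793, against 727 and 915. The exception was Oxct1, the ketone-body transferase, whose libraries spanned 2.47-fold. The member was below its relative in 18 of 19 pairs in replicate 1 and in all 19 in replicates 2 and 3. Gk2, an autosomal glycerol kinase of the testis, was above its X-linked relative Gyk in replicate 1, at 4.27 against 1.36 FPKM. In 5 pairs the member is autosomal and its relative lies on the X chromosome. The pairs were chosen by hand, so this count has no background beside it. Fabp9, the fatty acid-binding protein of germ cells, is a neighbour of the adipocyte gene Fabp4 on chromosome 3. It stood at 38.0 FPKM in replicate 1, against 1.23 and 0.776, whereas Fabp4 was lowest in replicate 1, at 24052 FPKM against 40887 and 35482.

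**Figure D5:**
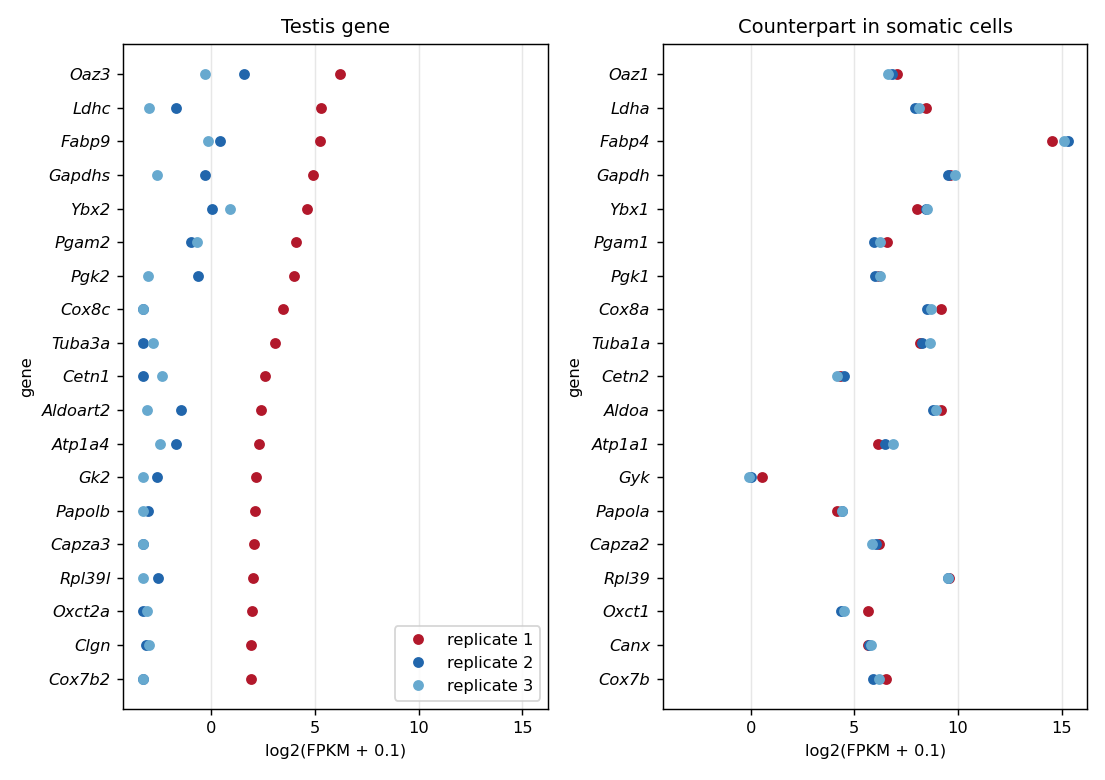
Levels as log2(FPKM + 0.1) of 19 members (left) and of their relatives in somatic cells (right), in the same row order, with 1 point per library. On the left the replicate 1 point lies apart in every row, as the rule requires, and on the right most points of a row fall together.

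RNA-binding and germ granule genes gave a smaller group. Ybx2, which binds and stores mRNAs in germ cells, stood at 24.1 FPKM in replicate 1, against 0.924 and 1.76 in replicates 2 and 3. Mael, a piRNA pathway protein, stood at 10.8 FPKM, against 0.179 and 0. Its pathway partner Gtsf1 stood at 5.75, against 0 and 0.304, and the RNA helicase Ddx25 at 3.63, against 0.0561 and 0. Papolb, the cytoplasmic poly(A) polymerase of spermatids, had 4.19 FPKM, against 0.0185 and 0. Of 21 fixed piRNA and germ granule genes 3 were members and 5 passed the 8-fold limit alone. The spermatocyte PIWI protein gene Piwil1 stood at 0.506 FPKM in replicate 1 and at 0 in the others. Among regulators of germ cell transcription and translation 2 of 15 were members and 5 passed the 8-fold limit alone. For both lists the shares over all genes were 1.85% of those tested and 2.79% of those above 0. Of the 15, 14 were highest in replicate 1, against a background of 51.5% of all genes above 0. The exception was Crem, the activator of many spermatid genes, level at 13.7, 14.3 and 14.9 FPKM in replicates 1, 2 and 3. Crem and Tbpl1 are expressed in other tissues as well, and the table gives 1 value per gene, so testis-specific isoforms cannot be told apart.

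Acrosome and sperm surface genes were mostly below the limit on the mean. Crisp2, a secreted cysteine-rich protein of the acrosome, stood at 28.1 FPKM in replicate 1, against 0.568 and 0.228. The sperm surface proteins Adam5 and Adam3 stood at 6.99 and 6.86 FPKM, against 0.126 and 0.0277 in replicate 2 and 0.0866 and 0 in replicate 3. Of 29 genes on the fixed acrosome list 4 were members, 19 passed the 8-fold limit alone and 29 were highest in replicate 1. The shares over all genes were 1.85% of those tested, and 2.79% and 51.5% of those above 0. Acr, which encodes the protease acrosin, was above FPKM 1 in all 3 libraries and missed the 8-fold limit. Acrv1, Spaca3 and Spaca4 had 2.31, 2.50 and 2.15 FPKM in replicate 1 and were listed at 0 in the others.

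Kinases, chaperones and the ubiquitin system made up further groups. The testis-specific kinases Tssk2, Tssk6, Tssk3 and Tssk1 stood at 8.64, 8.48, 5.93 and 4.65 FPKM in replicate 1, and their highest value elsewhere was 0.658, for Tssk6 in replicate 3. Of the fixed list of channels and signalling genes, 6 of 25 were members, against 1.85% of all genes tested. Among these members was the sperm sodium pump subunit Atp1a4 at 4.81 FPKM in replicate 1, against 0.209 and 0.0780. The pore subunits of the CatSper calcium channel were low, between 0.747 FPKM for Catsper1 and 2.70 for Catsper2 in replicate 1. In the ubiquitin list 4 of 8 genes were members, against the same 1.85%. Among them were March10, whose symbol the table holds as a calendar date and whose locus gave its name, at 6.81 FPKM in replicate 1, and Klhl10 and Rnf133 at 5.46 and 3.69. The chaperone genes Dnajb3, Hspb9 and Dnajb8 stood at 21.5, 19.7 and 14.7 FPKM in replicate 1, and Hspb9 kept 2.02 and 2.16 FPKM in replicates 2 and 3. Oaz3, the antizyme of spermatids that restrains polyamine synthesis, stood at 72.9 FPKM in replicate 1, against 2.90 and 0.698. Actin-like and actin-binding genes gave 7 members between 2.98 and 10.9 FPKM, led by Actrt2, and 4 members encode cysteine-rich perinuclear theca proteins of the Cypt family.

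Genes of the somatic cells of the testis were few among the members. Insl3, the insulin-like hormone of Leydig cells, stood at 31.9 FPKM in replicate 1, against 0.0497 and 0.557, and was the only member among 9 Leydig genes. Steroid synthesis genes of that list were lower but also highest in replicate 1, with Cyp17a1 at 1.05 FPKM, against 0.0426 and 0.0157, and Hsd3b6 at 0.824, against 0 and 0. Star, which carries cholesterol into mitochondria, was even, at 1.21, 1.19 and 1.31 in replicates 1, 2 and 3. Defb19, a beta-defensin of Sertoli cells, stood at 8.01 FPKM in replicate 1, against 0 and 0.576, and was the only member among 18 Sertoli genes. The Sertoli cystatin genes Cst12 and Cst9 had 2.73 and 1.68 FPKM in replicate 1 and 0 elsewhere, whereas the receptor gene Fshr was listed at 0 in all 3 libraries. Some other Sertoli genes were not highest in replicate 1. Dhh, a signalling ligand, stood at 1.44 FPKM there, against 3.96 and 7.58, and the inhibin subunit gene Inhbb at 9.33, against 15.2 and 12. The transcription factor gene Wt1, which mesothelial cells also use, stood at 2.87, against 1.89 and 3.64, and the hormone gene Amh at 0.056, against 0.0923 and 0.353. In all, 13 of 18 Sertoli and 7 of 9 Leydig genes were highest in replicate 1, against the background of 51.5%. The median of the Sertoli list was 0.61 in replicate 1, against -3.32 and -1.87, and that of the Leydig list -0.11, against -3.00 and -2.24, on the log2(FPKM + 0.1) scale.

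Most markers of the epididymis, which adjoins this fat depot, were at or near 0. Of 18 epididymis genes 12 were listed at 0 in every library, including the lipocalins Lcn5, Lcn8 and Lcn9, and their summed level was 9.16 FPKM in replicate 1, against 0.301 and 0.167. Nearly all of that sum was Cst8, a cystatin made in the epididymis and in germ cells, which was a member at 8.61 FPKM in replicate 1, against 0.246 and 0. No gene of the ciliated epithelium, neuron, skeletal muscle, hepatocyte or exocrine pancreas lists was a member, where the background of 1.85% leaves little room for any in lists this short. On the hepatocyte list Alb, the albumin gene, stood at 4.3 FPKM in replicate 1, against 0.84 and 0.713, and the cytochrome P450 gene Cyp2e1, which fat also expresses, at 1157, against 404 and 317. Of 8 ciliated cell genes without a sperm role, the regulators Mcidas and Gmnc stood at 0 and 0.0137 FPKM in replicate 1, and Foxj1, the master factor of motile cilia, at 1.33, against 0.585 and 0.519.

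Replicate 1 also stood apart in a few named genes of fat tissue, in both directions. The share of all genes that differed as much was not counted, and 51.5% of genes above 0 were highest in replicate 1. The adipokine gene Adipoq stood at 1476 FPKM in replicate 1, against 432 and 474 in replicates 2 and 3, and the lipid droplet gene Plin1 at 399, against 87.7 and 95.3. Fabp4, the fatty acid carrier of adipocytes, went the other way, at 24052 FPKM in replicate 1 against 40887 and 35482. The endothelial cadherin Cdh5 was lowest there, at 158 against 349 and 363, as was the mesothelial gene Upk3b, at 16.1 against 27.9 and 65.4. The part of these differences in the members' pattern was not tested, and in bulk RNA fewer cells of a type and less RNA per cell cannot be told apart.

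Not every member belongs to the testis. Chil3, a lectin of activated macrophages, stood at 11.7 FPKM in replicate 1, against 0.818 and 1.08. Rnase2a, a ribonuclease of eosinophils, stood at 7.76, against 0.253 and 0.649, and the acute-phase gene Saa1 at 3.42, against 0.0324 and 0.263. Stat4, which acts in lymphocytes and is also made in spermatids, stood at 4.15, against 0.237 and 0.355. Separately, 75 members, with 18.4% of the members' summed FPKM in replicate 1, were given no role, which does not place them outside the testis. Several are named for the testis, such as Spata3, Tex35 and Tcp10c. Spata3, Spata18 and Theg are among the 75 and are also counted on the fixed lists. The highest of the 75, Atp6v0c-ps2, had 64.1 FPKM in replicate 1, against 0.00794 and 0.0702. It is named as a pseudogene copy of a proton pump subunit gene, so its value is uncertain, because fragments of near-identical copies may not have been told apart. Next among the members with no role came Gsg1, a germ cell-specific gene, at 42.9 FPKM in replicate 1, against 1.42 and 0.243. Uncertainty from near copies also holds for Tuba3a and Tuba3b, Oxct2a and Oxct2b, the Tcp10 genes and the Cypt genes.

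Most of the members highest in replicate 1 were higher in replicate 2 than in replicate 3. Of the 20 members highest in replicate 1, 16 were higher in replicate 2 than in replicate 3, and their median ratio of FPKM was 40.0 for replicate 1 over 2 and 120 for replicate 1 over 3. Over all members 104 were higher in replicate 2 than in 3 and 69 the other way. The 4 exceptions among these 20 were Tnp1, Atp6v0c-ps2, Insl3 and Ybx2. How many of all genes tested were higher in replicate 2 than in 3 was not counted. A trait of the members therefore cannot be told from a general difference between these libraries.

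Members were spread over all autosomes and the X chromosome. Chromosome 17, which carries the t complex with its sperm genes, held 20 members (9.48%), against 5.12% of the genes tested. Among them were Tcp11 at 31.9 FPKM, Tcte3 at 8.66 and Tcp10c, Tcp10a and Tcp10b at 4.60, 3.67 and 3.59 in replicate 1. Chromosome 11 held 22 (10.4%, against 8.58%) and chromosome 13 held 2 (0.948%, against 3.38%). The X chromosome held 6 (2.84%, against 3.05%), which were Akap4, Cypt7, Hypm, Tmsb15a, Cypt3 and Tsga8, and the Y chromosome held 0 of the 5 genes tested there. By a limit of 50000 bases between neighbours, 25 members (11.8%) lay in 10 groups. The Iqcf genes, which encode IQ motif proteins, gave 4 neighbours on chromosome 9 between 106499967 and 106570967, with 35.9 FPKM in sum in replicate 1, against 0.264 and 0.150. Adam3, Adam5 and Adam32 lay together on chromosome 8, and Actl7a and Actl7b, Tssk1 and Tssk2, and Cmtm2a and Cmtm2b as pairs.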

How the data were processed

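RNA-seq of wild-type primary adipocytes gave 3 libraries, each matched to its column by the name in the sample description. The authors deposited 1 table of linear FPKM values. Which program computed the FPKM was not found in the labels. Tools listed for the whole series, per the submitters' processing notes, are featureCounts, Bismark 0.22.1 and Trim Galore 0.5.0, with mm10 (GRCm38) as the build. Strand is not stated, and reads of overlapping genes may be mixed. Because FPKM are shares of the RNA, a level is not an amount per cell.

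The table held 24889 rows and 24355 symbols, and the row of the highest mean was kept per symbol. Of 27 rows with a calendar date as symbol, 12 were named by an identical RefSeq start. RefSeq loci overlapped 207 of 211 members, 126 with the same start. Log values are log2(FPKM + 0.1), which understates ratios of low genes. The 21 gene lists held 314 genes, 310 of them measured. The members and lists were chosen with earlier results of these data known. Named genes were up to 6 members per list with the highest FPKM in replicate 1, the 15 highest members, the 10 highest on no list and those at the limits; some were left out for length, and others were named after their values were seen. Some members are counted but not reported here by name. The selection was tried on simulated data, with differences planted only in genes whose level was not low. It does not show how the rule acts at low levels, where most members stood in replicates 2 and 3. Tables were computed with pandas 2.3.3 and numpy 2.4.6 under Python 3.11.15, intervals with scipy 1.17.1 and plots with matplotlib 3.10.9. Intervals cover counting of promoters only. Alternatives covered the pseudocount, the fold limit, filters on low values, the choice of row, TPM, the symbols removed and leaving out libraries.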

Additional observations from a re-analysis of the deposited data

How the results depend on the processing

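The 211 members became 69 with a pseudocount of 1, 465 with no filter on low values, 37 with a mean FPKM of at least 5 and 339 after rescaling to TPM, which raises the values and so lets more genes past the mean of 1. Leaving out a library gave 290 without replicate 2 and 319 without replicate 3, and no value without replicate 1, on which the rule rests. All 211 were kept under the alternatives that loosen the rule, and the stricter ones, a pseudocount of 1, a fold limit of 16 and a mean of 5, only removed members. The 37 members on stage lists became 22 with a pseudocount of 1, 61 with no filter and 18 with a mean of at least 5, and stood at 45 and 44 without replicates 2 and 3. Averaged over libraries, the spermatogonium list median of -2.66 became 0.10 with a pseudocount of 1 and -4.39 with 0.01, that of meiotic prophase, -2.51, became 0.16 and -4.52, and that of late spermatocytes, -1.78, became 0.41 with a pseudocount of 1, as the scale's floor moves with the pseudocount. The share of members' promoters with GTTGCC, 23.4%, was 16.7% among the 30 on stage lists. Of 59 alternatives 45 stayed within the spread or within 1.5 times the count. For list levels the spread was the standard deviation of the library medians, which the replicate 1 difference itself widens. Without replicate 1 the averaged elongating spermatid median went from -0.16 to -1.99, which still counted as within a spread of 3.16. The tally therefore does not show that list levels are stable. No paired analysis was possible because there is only 1 group of RNA libraries. Depth is unknown, so low values and listed zeros have no counting interval.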

Other observations

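The symbols that the rule removes held more genes of the same kind. With the same limits, 77 of 577 removed symbols with a mean FPKM of at least 1 were more than 8-fold higher in replicate 1, which is 13.3%. Of the symbols that end in Rik, 63 of 398 passed. Among them, 60 of 118 genes whose clone prefix marks a RIKEN library of adult mouse testis passed (50.8%), against 3 of 280 with other prefixes (1.07%). The highest of these were 1700027A15Rik, at 35.0 FPKM in replicate 1 and listed at 0 in replicates 2 and 3, and 4933411K16Rik, at 27.3 against 0.950 and 0.237. Short noncoding genes gave the highest single values, such as Mir20a at 631 FPKM in replicate 1 and 0 in the others. FPKM of very short transcripts rest on few fragments and are not reliable. These genes were picked by the same contrast, so the counts are a description with no test.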
